A study of Mus musculus with 6 samples.

Results

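Keratins are the intermediate filament proteins of epithelial cells, and the genes described here are 10 keratin genes named by symbol: Krt7, Krt8, Krt18 and Krt19 of simple epithelia, Krt5 and Krt14 of basal cells, Krt6a, Krt16 and Krt17 of stressed epithelia, and Krt80. The measured genes were found by symbol in the table of expression values, which held 7 of the 10 among its 12656 genes. Krt5, Krt6a and Krt17 were not analysed here. The group was chosen by symbol with the LP-184 and DMSO log2 CPM values of these same libraries, and their differences, already known. The differences of its 7 measured genes between the groups are given as a description, with no test.

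The cells were 4T1, a mouse mammary carcinoma line labelled as triple-negative breast cancer, the class of breast tumours that lacks the oestrogen and progesterone receptors and HER2 amplification. LP-184, a DNA-damaging compound, had been given to the cells of 3 libraries for 48 h, and the solvent DMSO to the cells of the other 3. The groups share the line and its genotype, no agent other than these is named, and the sources used here give no dose. Polyadenylated RNA was sequenced in bulk from cultured cells of a single line, and no label states that the libraries of a group are separate cultures. A p-value here speaks of the spread among libraries, part of which may be technical.

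A keratin filament is built from pairs of a type I (acidic) and a type II (basic) protein, and neither type forms a filament alone. Simple epithelia, such as the ducts of the mammary gland, are known for the pair Krt8 and Krt18, to which Krt7 (type II) and Krt19 (type I) are added in ductal and luminal cells. Basal and myoepithelial cells make Krt14 with Krt5, and wounded or hyperproliferating skin makes Krt16 with Krt6a. Filaments are anchored to neighbouring cells at desmosomes and to the matrix at hemidesmosomes.

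The genes lie in the clusters for the keratin types. In GRCm38 the type II genes Krt80 (101347444 to 101370162, minus strand), Krt7 (101411043 to 101430313, plus strand) and Krt8 (101996698 to 102004482, minus strand) lie on chromosome 15. Krt18 (102028180 to 102032027, plus strand) is of type I but lies in the same cluster, 23.7 kb from its partner Krt8. The other type I genes lie on chromosome 11, all on the minus strand: Krt19 (100140810 to 100148665), Krt14 (100203162 to 100207548) and Krt16 (100246091 to 100248902), with 54.5 kb between Krt19 and Krt14 and 38.5 kb between Krt14 and Krt16.

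Of the 7 measured keratin genes, 4 had a promoter sequence in the RefSeq table used here (build GRCm38.p6). The 250 bases before the RefSeq start are printed 5′ to 3′ on the gene's own strand. They are given for Krt7, Krt8 and Krt18, which were lower with LP-184, and for Krt14, which was higher. The windows are chr15:101412153-101412402 for Krt7 (plus strand), chr15:102004343-102004592 for Krt8 (minus strand), chr15:102027966-102028215 for Krt18 (plus strand) and chr11:100206031-100206280 for Krt14 (minus strand). Those of Krt7 and Krt14 lie wholly inside the annotated gene spans given above, and those of Krt8 and Krt18 partly so. The Krt7 and Krt14 windows may therefore not be the promoter regions used in these cells, and no contrast between the windows is read. Capitals mark matches to the GC box GGGCGG or to the AP-2 motif GCCNNNGGC on either strand.
Krt7: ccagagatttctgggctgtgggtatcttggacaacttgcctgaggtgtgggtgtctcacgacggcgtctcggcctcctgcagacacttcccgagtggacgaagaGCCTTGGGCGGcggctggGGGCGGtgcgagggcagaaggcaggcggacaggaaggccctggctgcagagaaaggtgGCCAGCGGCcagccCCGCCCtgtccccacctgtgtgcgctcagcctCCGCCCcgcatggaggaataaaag
Krt8: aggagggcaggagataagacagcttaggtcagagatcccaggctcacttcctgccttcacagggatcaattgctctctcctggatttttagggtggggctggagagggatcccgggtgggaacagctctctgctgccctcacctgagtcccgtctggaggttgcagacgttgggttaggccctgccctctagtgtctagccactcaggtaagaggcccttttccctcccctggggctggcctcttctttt
Krt18: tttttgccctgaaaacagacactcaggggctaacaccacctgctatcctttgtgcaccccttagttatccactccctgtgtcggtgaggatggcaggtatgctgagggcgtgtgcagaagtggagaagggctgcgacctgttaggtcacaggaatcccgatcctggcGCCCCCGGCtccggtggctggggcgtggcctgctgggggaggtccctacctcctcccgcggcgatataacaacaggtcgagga
Krt14: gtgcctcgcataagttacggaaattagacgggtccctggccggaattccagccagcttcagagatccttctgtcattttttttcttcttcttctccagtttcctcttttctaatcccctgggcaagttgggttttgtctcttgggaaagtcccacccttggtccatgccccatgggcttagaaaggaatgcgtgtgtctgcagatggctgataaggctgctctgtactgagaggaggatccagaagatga
The Krt7 window held 4 GC boxes and 2 AP-2 matches, the first of which overlaps a GC box, and 66% of its bases were G or C. The Krt18 window held 1 AP-2 match, 83 to 75 bases before the start, at 60.4% G and C. The windows of Krt8 (58% G and C) and Krt14 (49.6%) held no match to these 2 motifs, nor did any of the 4 windows match AP-1 (TGANTCA), the TATA box (TATAAA), the STAT motif GAS (TTCNNNGAA) or the CCAAT box (CCAAT). Among 32851 such windows of the RefSeq table, 32.7% held the GC box, 13.7% AP-2, 6.75% AP-1, 12.4% the TATA box, 7.02% GAS and 33.8% the CCAAT box, and the median share of G and C was 52.4%. A match describes letters and is not a binding site.

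In LP-184 cells the keratin mRNAs of simple epithelia Krt7, Krt8 and Krt18 were lower than in DMSO cells, Krt7 by the most, while the simple keratin Krt19 was a little higher. The keratins that were scarce in DMSO cells, the basal Krt14 and the stress-associated Krt16, were higher with LP-184, Krt16 by an order of magnitude. Krt80 lay at like levels in both groups. In 3 genes every LP-184 library was higher than every DMSO library, in 3 every LP-184 library was lower, and in 1 the groups overlapped. Of all 11931 genes tested, 79.1% had groups apart in this way, and the keratin genes were chosen with these values known, so nothing is read from these counts. In bulk RNA, fewer cells that make a keratin and less of its RNA per cell cannot be told apart.

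**Figure D1:**
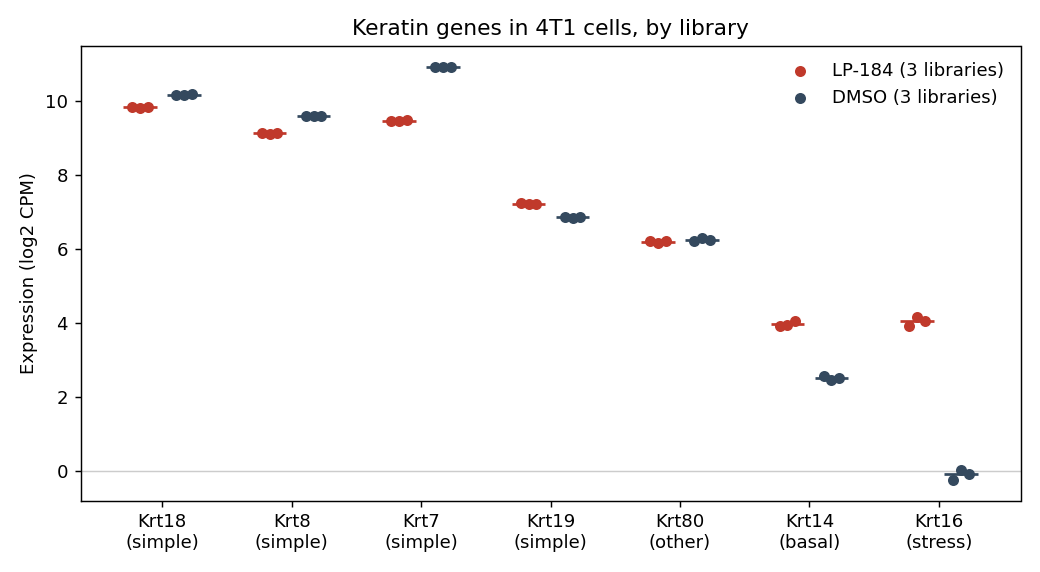
Expression of the 7 measured keratin genes in log2 CPM (vertical axis), with LP-184 libraries in red to the left of DMSO libraries in dark blue for each gene. Each point is a library and each bar the mean of 3. The points of a group lie close together, and the groups overlap for Krt80 alone among these genes.

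The libraries held 18952393 to 22471753 reads with LP-184 and 18864368 to 21585323 with DMSO over the genes of the table. Libraries of the same group correlated across genes at r of 0.9942 to 0.99479, and libraries of different groups at 0.91449 to 0.91654. By limma with Benjamini-Hochberg adjustment, 78.3% of the 11931 genes tested differed at an adjusted p under 0.05, with 38.3% higher and 40.0% lower in LP-184 cells, and the median log2 fold change was -0.01. Epithelial markers were present, with Epcam, a cell adhesion molecule, at 464 ± 8.28 CPM with LP-184 and 361 ± 11.7 CPM with DMSO (SD, n = 3 each). Of the receptors that define the labelled tumour class, the oestrogen receptor gene Esr1 had 0.381 ± 0.169 CPM with LP-184 and 10.5 ± 1.11 CPM with DMSO, and Pgr was not analysed here. Of markers of other cells, 1 of 7 fibroblast markers had values (Pdgfra, 8.12 to 10.3 CPM with LP-184 and 6.37 to 7.62 CPM with DMSO). 1 of 8 immune markers had values, Cd68 at 29.0 to 35.1 CPM with LP-184 and 9.55 to 10.6 CPM with DMSO, and 0 of 5 endothelial and 0 of 4 milk protein markers had any. The part of such cells in the keratin values was not tested.

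Krt7, the type II keratin of ductal and glandular cells, had 705, 701 and 709 CPM in the LP-184 libraries and 1923, 1915 and 1939 CPM in the DMSO libraries. All LP-184 libraries lay far below all DMSO libraries, and the libraries of a group differed little. On the log2 CPM scale the difference was -1.45 ± 0.017 (SE, n = 3 each), 2.73-fold higher in DMSO cells. By CPM, which favours long transcripts, Krt7 ranked 179th of the 11931 genes in LP-184 cells and 26th in DMSO cells. It rests on 44258 reads with LP-184 and 113176 with DMSO, so counting error is small beside the difference.

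Krt8, the type II partner of Krt18 and among the first keratins of the embryo, had 559.8, 551 and 559 CPM in the LP-184 libraries and 771, 771 and 768 CPM in the DMSO libraries. The groups were apart, with a smaller step than for Krt7: the log2 fold change was -0.47 ± 0.020 (SE, n = 3 each), 1.38-fold higher in DMSO cells. Krt18, the type I partner, had 904, 890.1 and 916 CPM in the LP-184 libraries and 1142, 1139.7 and 1154 CPM in the DMSO libraries. It too was lower in every LP-184 library, at a log2 fold change of -0.34 ± 0.018, 1.27-fold higher in DMSO cells. Both partners thus stood on the same side of the comparison, and the type II partner differed by more.

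Krt19, the smallest keratin and a type I marker of ductal and luminal cells, went the other way among the simple keratins. It had 151, 147 and 148 CPM in the LP-184 libraries and 116, 113 and 117 CPM in the DMSO libraries. Every LP-184 library was higher, by a log2 fold change of 0.37 ± 0.033 (SE, n = 3 each), or 1.29-fold. That value is 0.01 once the length trend, described further on, is removed.

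Krt14, the type I keratin of basal and myoepithelial cells, had 14.9, 15.2 and 16.5 CPM in the LP-184 libraries and 5.79, 5.41 and 5.56 CPM in the DMSO libraries. The groups were apart by more than their spread, with a log2 fold change of 1.46 ± 0.12 (SE, n = 3 each), or 2.75-fold. It rests on 972 reads with LP-184 and 328 with DMSO. Of 6 markers of myoepithelial cells, Mylk, a myosin light chain kinase, alone had values, at 3.15 to 3.83 CPM with LP-184 and 1.17 to 1.28 CPM with DMSO, and whether a change in such cells has a part in the Krt14 values was not tested.

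Krt16, the type I keratin that wounded and inflamed epidermis makes, had 15.1, 18.0 and 16.3 CPM in the LP-184 libraries and 0.751, 0.932 and 0.856 CPM in the DMSO libraries. These are 344, 375 and 312 reads with LP-184 and 14, 20 and 16 reads with DMSO. DMSO cells thus held the transcript near the lower end of the genes tested, at rank 11615 of 11931 by CPM, and LP-184 cells at rank 7344. The log2 fold change was 4.13 ± 0.18 (SE, n = 3 each), or 17.5-fold, on the deposited scale, whose added prior of about 2 reads pulls low genes together, and 19.5-fold from the mean levels without that prior. Krt16 passed the filter on low values through its LP-184 libraries, since DMSO replicates 1 and 3 lay under log2 CPM 0, at -0.24 and -0.07. The other 6 measured keratins passed it in both groups.

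Krt80, a type II keratin found in many epithelia near the cell margin, had 74.0, 70.7 and 73.5 CPM in the LP-184 libraries and 73.2, 78.2 and 75.8 CPM in the DMSO libraries. The groups overlapped, and the log2 fold change of -0.06 ± 0.043 (SE, n = 3 each) was close to its own error. Centring the libraries on the median of all genes tested turned it to 0.03.

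Some of these reads can belong to a near copy. Of the 50-base windows of the longest Krt16 transcript, 37.6% also occur in another annotated transcript, most of them in the predicted gene Gm11597 and the others in Krt14 and Krt17. For Krt14 the share is 14.37% (Krt16 and Krt17) and for Krt8 it is 26.93%, all with the pseudogene Krt8-ps. It is 0.72% for Krt18 and 0% for Krt7, Krt19 and Krt80. The Krt14 and Krt16 values are therefore uncertain by what their shared sequence could move between them. Reads could likewise move between Krt16 and Gm11597, and between either keratin and Krt17. Krt7, Krt8 and Krt80 also overlap antisense genes in 77, 101 and 263 exonic bases, and the sources used here do not state whether the counting used strand.

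Levels were compared per kilobase of annotated exon, the scale on which genes can be set against each other. Among the 7 measured genes of the group, the simple keratins made up nearly all of the summed level, with LP-184 and with DMSO. Krt5, Krt6a and Krt17 are not in that sum. Krt18 was the most abundant, at 629 ± 8.9 CPM per kb with LP-184 and 797 ± 5.2 with DMSO (SD, n = 3 each), followed by Krt8 at 284 ± 2.5 CPM per kb with LP-184 and 393 ± 0.81 with DMSO. Next came Krt7, at 100 ± 0.56 CPM per kb with LP-184 and 273 ± 1.8 with DMSO, and then Krt19, at 80.0 ± 1.1 with LP-184 and 62.0 ± 1.1 with DMSO. No ranges of neighbours in this order overlapped down to Krt19. Below it, in LP-184 cells, Krt80 (11.4 ± 0.28 CPM per kb) and Krt16 (10.5 ± 0.93) overlapped in range and Krt14 (8.83 ± 0.49) came last. In DMSO cells the order was Krt80 (11.8 ± 0.39 CPM per kb), Krt14 (3.18 ± 0.11) and Krt16 (0.541 ± 0.058), with no overlap. With the longest transcript as the length, Krt7 stood above Krt8 in DMSO cells, at 470.4 against 393 CPM per kb. In LP-184 cells, with that length, Krt80 (18.6 ± 0.45 CPM per kb) lay above Krt16 (10.5 ± 0.93) with no overlap, and Krt16 overlapped Krt14 (9.15 ± 0.51). These steps in the order therefore rest on the choice of length.

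The summed level of the 7 keratins was 1126, 1111 and 1134 CPM per kb in the LP-184 libraries and 1539, 1535 and 1549 in the DMSO libraries, a ratio of 0.729. The sum follows the abundant simple keratins. The 4 simple keratins summed to 1093 ± 12 CPM per kb with LP-184 and 1525 ± 7.1 with DMSO, so the higher Krt14 and Krt16 levels changed the total little. Of the summed level, Krt7 made up 8.90% in LP-184 cells and 17.7% in DMSO cells, and Krt19 7.12% in LP-184 cells and 4.03% in DMSO cells. Krt14 held 0.786% in LP-184 cells and 0.206% in DMSO cells, and Krt16 0.937% in LP-184 cells and 0.0351% in DMSO cells. Krt18 held 55.9% with LP-184 and 51.7% with DMSO, and Krt8 25.3% with LP-184 and 25.5% with DMSO, so Krt8 kept nearly the same share of the smaller total. Shares depend on the length used: with the longest transcript Krt7 made up 14.1% in LP-184 cells and 26.8% in DMSO cells. As a share of all reads, the 7 genes took 0.242% to 0.246% with LP-184 and 0.398% to 0.400% with DMSO.

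**Figure D2:**
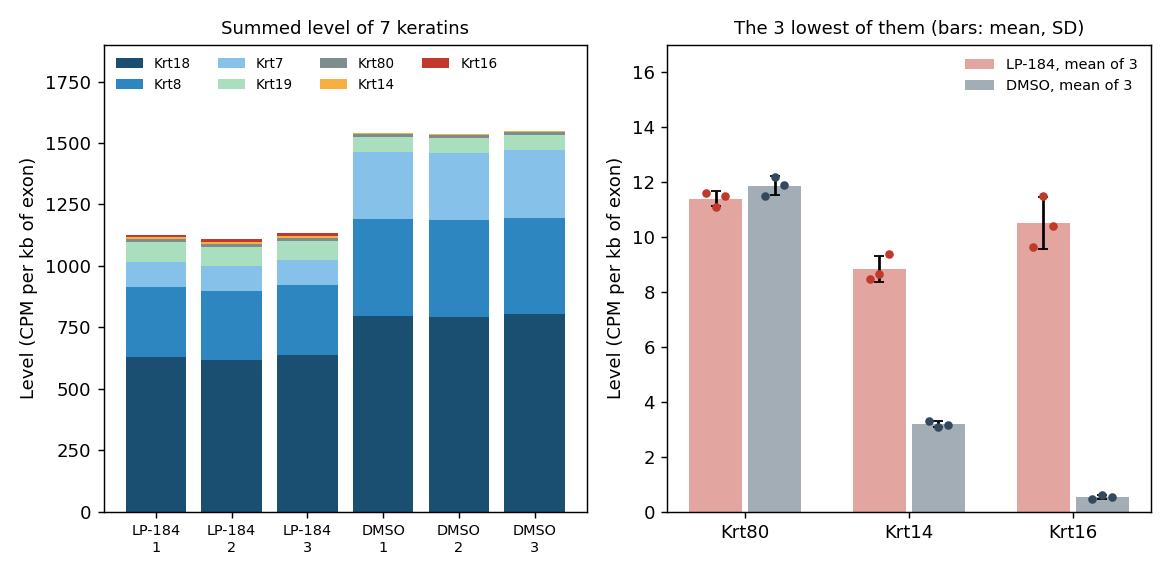
Left, summed level of the 7 keratins in CPM per kb of exon in each library, LP-184 libraries left of DMSO libraries, with a colour for each gene. Right, the same scale for Krt80, Krt14 and Krt16, with bars for the mean of 3, error bars for the SD and points for libraries: the sums are 1111 to 1134 with LP-184 and 1535 to 1549 with DMSO, and Krt16 overlaps Krt80 in LP-184 cells, which it does not with the longest transcript as length (10.5 against 18.6).

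Because type I and type II proteins pair, the ratio of the types within a library was also taken. The measured type II genes (Krt7, Krt8 and Krt80) summed to 0.543 ± 0.0034 of the measured type I genes (Krt18, Krt19, Krt14 and Krt16) with LP-184 and to 0.786 ± 0.0045 with DMSO (SD, n = 3 each). With the longest transcript as the length these ratios were 0.640 with LP-184 and 1.01 with DMSO. The summed type II level was 396 ± 3.2 CPM per kb with LP-184 and 678 ± 0.89 with DMSO, and the summed type I level 728 ± 9.0 with LP-184 and 863 ± 6.1 with DMSO, so both types were lower and type II by more. Krt8 over Krt18 was 0.452 ± 0.0037 with LP-184 and 0.493 ± 0.0042 with DMSO. Krt7 over Krt19 moved much more, at 1.25 ± 0.017 with LP-184 and 4.4 ± 0.057 with DMSO. Type II partners that were not analysed here, among them Krt5 and Krt6a, are not in these sums. On the type I side, Krt17, which was not analysed here, and Krt10, which is outside the group, are not in them either.

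Across all genes the LP-184 to DMSO difference varied with gene length, and the 7 keratin genes are short to medium in length, at 2.81 to 22.72 kb. The loess trend of log2 fold change on gene span was 0.17 to 0.36 at their spans. Among the 4846 genes tested with a span in that range, the median log2 fold change was 0.26, 56.5% were higher and 22.6% lower in LP-184 cells. Krt7, Krt8 and Krt18 were therefore lower among genes of like span that were mostly higher. With the trend removed their log2 fold changes were -1.68, -0.83 and -0.65, that of Krt80 was -0.23, that of Krt19 was 0.01, that of Krt14 was 1.14 and that of Krt16 was 3.84.

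**Figure D3:**
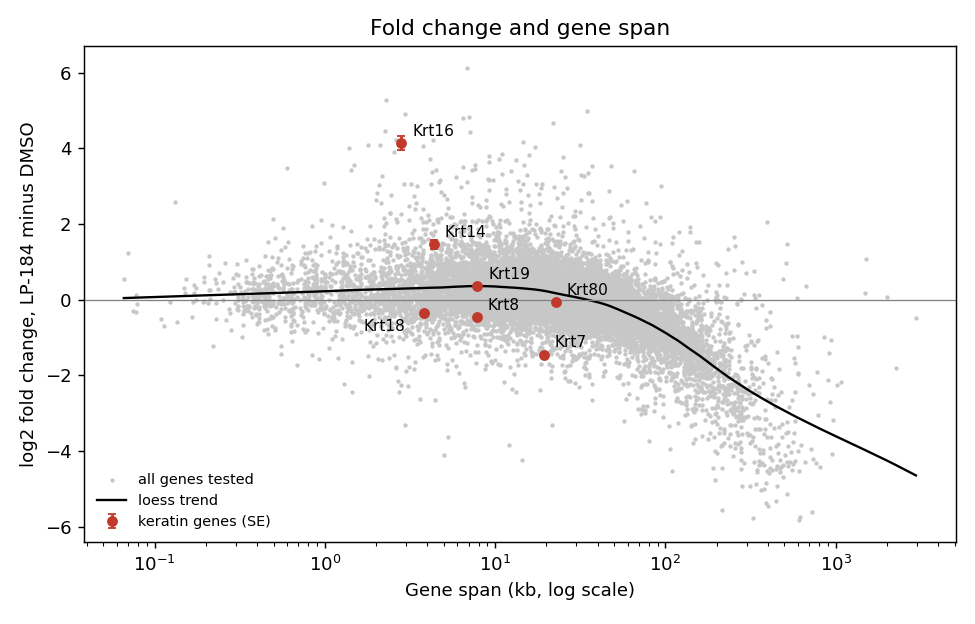
Log2 fold change (LP-184 minus DMSO) of the genes tested against gene span in kb on a log axis, with all genes in grey, the loess trend as a line and the 7 keratins in red with their SE. Krt7, Krt8 and Krt18 lie below the trend, Krt14 and Krt16 above it, and Krt19 on it.

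For each keratin the 2 genes whose profile over the 6 libraries was most like it were found by Euclidean distance of centred log2 CPM. Krt7 lay nearest to Sdc2, a cell surface proteoglycan gene (distance 0.062, log2 fold change -1.46), and Rbms1 (0.064). Krt8 lay nearest to Tk1, a thymidine kinase (0.022), and Armc1 (0.023), and Krt18 to Eif2s1, a translation initiation factor (0.013), and G3bp1, a stress granule protein (0.018). Krt19 lay nearest to Pcbp4 (0.027) and Rpl7l1 (0.031), and Krt80 to Son (0.037) and Csnk2a2 (0.039). Krt14 lay nearest to Rnd3 (0.099) and Plk2 (0.12). Krt16 lay nearest to Oasl1 (0.26, log2 fold change 4.15) and Isg15 (0.31, 4.01), both interferon-induced genes. With 2 groups, such likeness mostly reflects a like difference between them.

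The table held 3 more keratin rows. Krt10, the type I keratin of differentiated epidermis, fell to 4.82, 4.17 and 4.30 CPM in the LP-184 libraries, against 5.58, 6.66 and 5.51 CPM in the DMSO libraries (log2 fold change -0.41 ± 0.16, limma adjusted p = 0.023). That call was lost without LP-184 replicate 2 (adjusted p = 0.065), without DMSO replicate 2 (0.12), with median centring (0.07) and with quantile normalization (0.42). Krt8-ps, a processed pseudogene on chromosome 7, had 3.72, 5.6 and 4.30 CPM with LP-184 and 5.74, 4.99 and 5.35 CPM with DMSO, which overlap (-0.25 ± 0.17, adjusted p = 0.18). Without LP-184 replicate 2 it passed, at -0.41 and an adjusted p of 0.048. 57.37% of its 50-base windows also occur in Krt8, so its reads may be those of the parent gene. Krt87, a hair keratin gene, was too low to test, with 16 reads over the LP-184 libraries and 37 over the DMSO libraries.

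Vim, the gene of vimentin, the intermediate filament protein of mesenchymal cells, fell with LP-184, as did the lamins Lmna and Lmnb1. Of 6 other intermediate filament genes tested, 2 rose, 3 fell and 1 did not pass, with a median log2 fold change of -0.12 against -0.01 over all genes tested. Over all 11931 genes tested, 38.3% were higher and 40.0% lower, and each list count below stands beside these shares. Vim had 332 ± 1.83 CPM with LP-184 and 1092 ± 7.15 CPM with DMSO (-1.72 ± 0.02, adjusted p = 6.1e-37), a wider step than that of any measured keratin that was lower. Lmnb2, a nuclear lamina gene, rose (87.7 ± 2.51 CPM with LP-184 and 35.9 ± 1.78 with DMSO, 1.29 ± 0.05, adjusted p = 1.8e-22). Nes, the gene of nestin, rose less, at 0.49 ± 0.05 (adjusted p = 7e-11).

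Genes of the desmosome, to which keratin filaments attach, mostly rose: of 10 tested, 7 rose, 2 fell and 1 did not pass. Over all genes tested, 38.3% were higher and 40.0% lower. The median log2 fold change of the desmosome genes was 0.46, against -0.01 over all genes tested, and 0.28 with the length trend removed. Dsp, the gene of desmoplakin, which binds keratin filaments, had 178 ± 5.70 CPM with LP-184 and 86.1 ± 4.12 CPM with DMSO (1.05 ± 0.04, adjusted p = 1.8e-23). Jup, plakoglobin, named here because it lies 120.1 kb from Krt16, rose by 1.01 ± 0.03 (adjusted p = 7.4e-25). Dsg3, a cadherin of stratified epithelia that was scarce in DMSO cells, had 4.51 ± 0.371 CPM with LP-184 and 0.303 ± 0.0811 CPM with DMSO (3.54 ± 0.30, adjusted p = 5.3e-13, and 2.08 as log2(CPM + 1)). It passed the filter on low values through its LP-184 libraries alone, and its adjusted p carries that limit. Pkp4, a plakophilin, fell (26.2 ± 0.312 CPM with LP-184 and 74.5 ± 0.792 with DMSO, -1.51 ± 0.05, adjusted p = 1.2e-23), but with the length trend removed it was higher, at 0.27.

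Plakins, which link keratins to junctions, and hemidesmosome genes mostly fell, with 3 of 12 higher, 8 lower and 1 not passing. Over all genes tested, 38.3% were higher and 40.0% lower. The list median was -0.32, against -0.01 over all genes tested. With the length trend removed, however, 7 were higher and 3 lower at a median of 0.63. The 3 genes with the largest changes follow. Dst, the gene of dystonin, which anchors keratin at the hemidesmosome, had 32.4 ± 1.48 CPM with LP-184 and 103 ± 4.04 CPM with DMSO (-1.66 ± 0.05, adjusted p = 1e-25), and 1.03 with the trend removed. Itga6, the integrin of the hemidesmosome, fell by 1.03 on the log2 scale (SE 0.03, adjusted p = 2.2e-25), and was at -0.01 with the trend removed. Evpl, envoplakin, of the cornified envelope, rose by 1.09 ± 0.16 (adjusted p = 1.2e-07).

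Of 35 listed genes of the cornified envelope and squamous differentiation, the programme to which Krt16 is often added in skin, 5 could be tested. Of these, 3 rose, 1 fell and 1 did not pass. Their median was 0.60, against -0.01 over all genes tested, and 0.28 with the length trend removed. Sbsn, the gene of suprabasin, had 12.2, 14.3 and 12.6 CPM in the LP-184 libraries and 0.912, 1.77 and 1.71 CPM in the DMSO libraries (3.12 ± 0.20, adjusted p = 3.2e-16). Csta1, a stefin, rose by 1.33 ± 0.32 (adjusted p = 3e-04, and 0.78 as log2(CPM + 1)), and S100a8, a calcium-binding alarmin, was lower, at 0.52 ± 0.0973 CPM with LP-184 and 1.41 ± 0.299 CPM with DMSO (-1.28 ± 0.34, adjusted p = 0.0011, and -0.66 as log2(CPM + 1)). Csta1 passed the filter on low values mainly through its LP-184 libraries, and S100a8 through its DMSO libraries alone. Their adjusted p-values carry that limit. The remaining genes of this list were too low to test or not analysed here.

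Transcription factors known to act on keratin genes moved both ways: of 28 tested, 11 rose, 9 fell and 8 did not pass, at a median of 0.01. The 3 with the largest changes were Esr1, Grhl3 and Foxa1. Grhl3, a grainyhead factor of the epidermal barrier, had 3.19 ± 0.527 CPM with LP-184 and 0.263 ± 0.184 CPM with DMSO (3.30 ± 0.36, adjusted p = 3.1e-10, and 1.73 as log2(CPM + 1)). Grhl3 passed the filter on low values through its LP-184 libraries alone, and Esr1 through its DMSO libraries alone. Their adjusted p-values carry that limit. Foxa1, a pioneer factor of luminal cells, had 21.2 ± 0.277 CPM with LP-184 and 2.63 ± 0.263 CPM with DMSO (2.96 ± 0.13, adjusted p = 2.2e-20), while its usual companion Esr1 fell (-4.51 ± 0.25, adjusted p = 1e-17), and stayed lower at -1.84 once the length trend was taken out. These are the 2 of 4 markers of hormone-sensing luminal cells with values, and they summed to 21.2 to 21.8 CPM with LP-184 and 12.2 to 14 CPM with DMSO. Elf3 (2.77), Ovol1 (2.07), Klf4 (1.68) and Ehf (1.46), chosen after their values were seen, also rose on the log2 scale. Of their relatives and other luminal factors in the list, Grhl2 fell (-0.40, adjusted p = 3.9e-07), and Grhl1 (0.15, adjusted p = 0.68), Ovol2 (-0.01, 0.97) and Gata3 (0.02, 0.73) did not pass. Of factors whose motifs were searched above, the AP-2 genes Tfap2a and Tfap2c were at 0.33 (adjusted p = 4e-05) and -0.06 (0.84), and Sp1, which binds GC boxes, at -0.24 (1.8e-05). Of the AP-1 genes, Fos fell (-1.63), as did Jun (-0.22) and Jund (-0.26), Fosl1 (1.06) and Fosl2 (0.77) rose, and Junb was at -0.02 and did not pass. Stat3, a factor that binds GAS motifs, fell (-0.25, adjusted p = 9.7e-05).

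Genes of epithelial identity mostly rose: of 20 tested, 15 rose, 3 fell and 2 did not pass. Over all genes tested, 38.3% were higher and 40.0% lower. The list median was 0.34, against -0.01 over all genes tested. With the length trend removed 14 were higher, 2 lower and 4 did not pass, at a median of 0.31. Muc1, an apical mucin, had 5.29 ± 0.108 CPM with LP-184 and 0.205 ± 0.108 CPM with DMSO (4.21 ± 0.32, adjusted p = 2.8e-14). Its DMSO libraries hold few reads, so the size of its change rests on the prior, and it is 2.39 as log2(CPM + 1). Muc1 passed the filter on low values through its LP-184 libraries alone, and its adjusted p carries that limit. Marveld2, of tricellular tight junctions, and Crb3, a polarity gene, rose by 0.96 ± 0.06 and 0.91 ± 0.06 (adjusted p = 4.3e-17 and 2e-15). Cdh1, the gene of E-cadherin, rose by 0.38 ± 0.02 (adjusted p = 7.9e-16).

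Sfn, the 14-3-3 sigma protein that binds keratin, rose with LP-184, to 160 ± 2.40 CPM, against 108 ± 4.29 CPM with DMSO (0.56 ± 0.03, adjusted p = 1.1e-16).

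**Figure D4:**
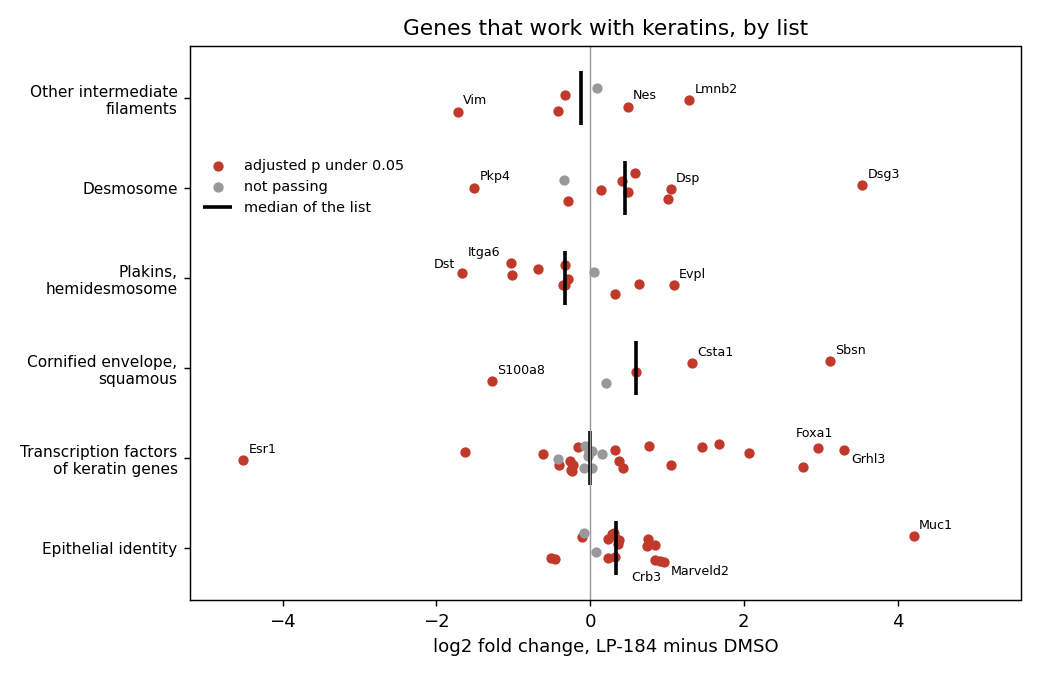
Log2 fold change (LP-184 minus DMSO) of the genes tested in 6 lists of genes that work with keratins, with red points at an adjusted p under 0.05, grey points not passing, a bar at the median of each list and vertical jitter for legibility. Desmosome and epithelial identity genes lie mostly to the right, transcription factors on both sides, and plakin and hemidesmosome genes mostly to the left, a side that turned with the length trend removed (median 0.63 in place of -0.32).

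Genes next to the keratins, within 250 kb of a measured one, were counted after the data had been seen. On chromosome 11, beside Krt19, Krt14 and Krt16, 6 of 9 other genes tested rose, 0 fell and 3 did not pass, at a median of 0.38. Among them were Klhl11 (1.16 ± 0.08, adjusted p = 1.4e-15) and the translation initiation factor gene Eif1 (0.46 ± 0.02, adjusted p = 4.4e-21). On chromosome 15, beside Krt80, Krt7, Krt8 and Krt18, 7 of 12 rose, 2 fell and 3 did not pass, at a median of 0.35, with Nr4a1, an orphan nuclear receptor gene, at 1.87 ± 0.11 (adjusted p = 4e-17). One of the 2 that fell was Gm35853, which overlaps Krt80 on the other strand (0.586 CPM with LP-184 and 1.99 CPM with DMSO, -1.66 ± 0.34, adjusted p = 4.9e-05). These shares stand beside the 56.5% higher and 22.6% lower among all genes of the keratins' span, so nothing particular to the neighbours is read from them.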

How the data were processed

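Gene expression was measured in 6 libraries of 4T1 cells, 3 with LP-184 and 3 with DMSO at 48 h, grouped by their titles. The authors deposited log2 CPM values (read counts scaled to library size, on a log2 scale) for 12656 genes; a column named Ctrl was read as the DMSO library that carries its number. Per the submitters' processing notes, fastp, STAR 2.7, featureCounts, Subread 2.0 and edgeR were used, with the builds mm10 and hg38, and no roles or settings are named. No source used here states the strand setting or the filter behind the table. Removing the prior count gave whole reads for 100% of values (tolerance 1e-06 reads); 0 reads is log2 CPM -3.34. The authors also deposited their own comparison, with a log2 fold change and a p-value per gene; the authors' deposited table has a log2 fold change of 4.26 for Krt16 and lies within 0.01 of the values here for the other 6 measured genes of the group.

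The 11931 genes that reached log2 CPM 0 in 3 or more libraries went into limma 3.58.1 (R 4.3.3), by a two-sided moderated test between the 2 groups with a mean-variance trend. P-values were adjusted by Benjamini-Hochberg, and calls were made under 0.05. The keratin genes and the lists were chosen with earlier results of these data known. In each list the 3 called genes with the largest change are named, and other genes were named with their values known. The result of a further list, on keratin binding and turnover, is not reported here apart from Sfn. A count test was not run as the main test because the values are log2; limma's voom on the recovered reads was an alternative. Levels per kb used union exon lengths of GENCODE M21 on GRCm38, matched by symbol for 12134 genes (95.9%). The length trend was a loess curve (span 0.3) of fold change on log10 gene span. Python 3.11.15, pandas 2.3.3, numpy 2.4.6 and matplotlib 3.10.9 were used. The procedure was tested on simulated data. The scaling was also changed (to median centring or quantile normalization), the pseudocount (to 1 or 0.1 CPM), the filter (none, or log2 CPM 2), the variance trend (none), the threshold (0.01) and the length (longest transcript). Each library was left out in turn, and a replicate block was fitted.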

Additional observations from a re-analysis of the deposited data

How the results depend on the processing

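The summed keratin level (log2 of LP-184 over DMSO, -0.46) was -0.53 with the longest transcript as length and -0.37 with median centring, and -0.46 to -0.45 when each library was left out in turn. The measured keratins kept their direction under every alternative run except Krt80, at -0.23 to 0.03, and Krt19, which with the length trend removed was at 0.01, under its SE of 0.034. Krt7 ranged over -1.68 to -1.32, Krt8 over -0.83 to -0.38, Krt18 over -0.65 to -0.26, Krt19 over 0.01 to 0.45, Krt14 over 1.14 to 1.67 and Krt16 over 3.24 to 4.23. Of other named genes, Pkp4 (0.27) and Dst (1.03) reversed with the length trend removed, and Itga6 (adjusted p = 0.81) lost its call; these genes have long spans, which that alternative acts on. With the trend removed Krt8-ps passed at -0.47 (adjusted p = 0.023). Genes higher and lower numbered 4574 and 4767, 5195 and 4222 with median centring, 5121 and 4371 with quantile normalization, 4158 and 4371 with the trend removed, 4218 and 4410 at a threshold of 0.01, and 4415 to 4493 and 4607 to 4655 with 1 library left out. Median centring moved the median of all genes by less than 0.1. With the replicate block, genes higher and lower numbered 4550 and 4741. Same-numbered libraries did not deviate together (r of -0.0105, -0.0177 and -0.00648). No effect shared by number was thus seen, which cannot show whether such libraries were set up together. Depth limits Krt16 in DMSO cells, at 14 to 20 reads a library.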
